A study of Mus musculus with 2 samples.

Results

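The miR-99/100 and miR-125 genes of the let-7 clusters were described in juvenile mouse hippocampus by microRNA sequencing, which reads small RNAs that are mostly 1 mature strand of a hairpin precursor. The members are the 6 genes Mir99a, Mir99b, Mir100, Mir125a, Mir125b-1 and Mir125b-2, picked out by their GENCODE M21 names among the 2202 microRNA (miRNA) genes counted. The series holds 2 libraries of 1 group, from total RNA of tissue labelled layer of hippocampus, taken from male B6CASTF1/J mice, a hybrid of the C57BL/6J and CAST/EiJ strains, at 25 days of age. No mutant, treatment or second tissue is included. The libraries are named biological replicates 1 and 2, with separate biosamples but 1 shared donor entry. Whether they come from 1 animal or from 2 is not settled by the labels. Their spread is therefore that between these samples, and part of it may be technical.

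A miRNA guides an Argonaute protein to messenger RNAs that pair with bases 2 to 8 of its strand, the seed, and lowers their translation and stability. The miR-125 family is the counterpart of lin-4, which with let-7 times developmental transitions in the nematode. The miR-99/100 family is a relative of miR-10. A miR-100, let-7 and miR-125 gene order is kept from insects to mammals. In neurons miR-125a and miR-125b are known to act on synaptic messenger RNAs and dendritic spines, whereas miR-99 and miR-100 are best known for messenger RNAs of the mTOR growth pathway.

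The mature strands show why these 6 genes form 2 families and which of them can be told apart by their reads. All 6 had mature entries in the RefSeq table of GRCm38.p6, the assembly behind mm10. In the 5p strands, written 5′ to 3′, capitals mark the seed.
miR-99a-5p: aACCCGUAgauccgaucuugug
miR-100-5p: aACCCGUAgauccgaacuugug
miR-99b-5p: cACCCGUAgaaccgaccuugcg
miR-125a-5p: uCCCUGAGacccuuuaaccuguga
miR-125b-5p: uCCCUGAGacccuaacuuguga
The miR-99/100 strands share the seed ACCCGUA and the miR-125 strands share CCCUGAG. Counted from the 5′ end, miR-99a-5p and miR-100-5p differ by the single substitution U16A over 22 bases. From miR-99a-5p to miR-99b-5p there are 4 substitutions, A1C, U11A, U16C and U21C. The first 13 bases of miR-125a-5p and miR-125b-5p are the same.

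Each of the first 4 of these strands was found whole in 1 gene of the RefSeq table. In contrast, miR-125b-5p is the product of both Mir125b-1 and Mir125b-2, so a read of exactly this strand matches both genes. The authors' tables hold reads aligned to several places apart from the gene counts. Between these genes the 3p strands, the opposite arms of the hairpins, do differ, and they are shown because they are what separates the 2 copies. Capitals again mark bases 2 to 8.
miR-125b-1-3p: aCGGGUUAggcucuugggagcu
miR-125b-2-3p: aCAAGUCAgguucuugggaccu
Over 22 bases these 3p strands differ by 5 substitutions from miR-125b-1-3p to miR-125b-2-3p, G3A, G4A, U7C, C11U and G20C. The tables count genes and not strands, so the 5p and 3p parts of a gene's count could not be separated. Whole matches were sought in the RefSeq table only, which held hairpins for 4 of the 6 members, and not in the genome.

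The 6 genes lie in 3 clusters with the same order, first a miR-99/100 gene, then a let-7 gene, then a miR-125 gene, all on the plus strand of mm10. On chromosome 17, Mir99b (ENSMUSG00000065396.1, 17830188 to 17830257), Mirlet7e (17830352 to 17830444) and Mir125a (ENSMUSG00000065479.2, 17830812 to 17830879) fit within 692 bases of the protein-coding gene Spaca6. Mir99b and Mirlet7e are intronic there, and Mir125a overlaps part of an annotated exon. On chromosome 16, Mir99a (ENSMUSG00000065530.1, 77598936 to 77599000) and Mirlet7c-1 (77599657 to 77599750) are 656 bases apart, and Mir125b-2 (ENSMUSG00000065472.1, 77646273 to 77646343) follows 46.5 kb further on. These 3 lie in introns of the noncoding gene Mir99ahg. On chromosome 9, Mir100 (ENSMUSG00000093011.1, 41531425 to 41531504) and Mirlet7a-2 (41536716 to 41536811) are 5.21 kb apart, and Mir125b-1 (ENSMUSG00000093354.1, 41581926 to 41582002) follows after 45.1 kb. All 3 are in introns of the noncoding gene 3110039I08Rik, and Mir125b-1 is also within an exon of the sense-intronic gene Gm28119.

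**Figure D1:**
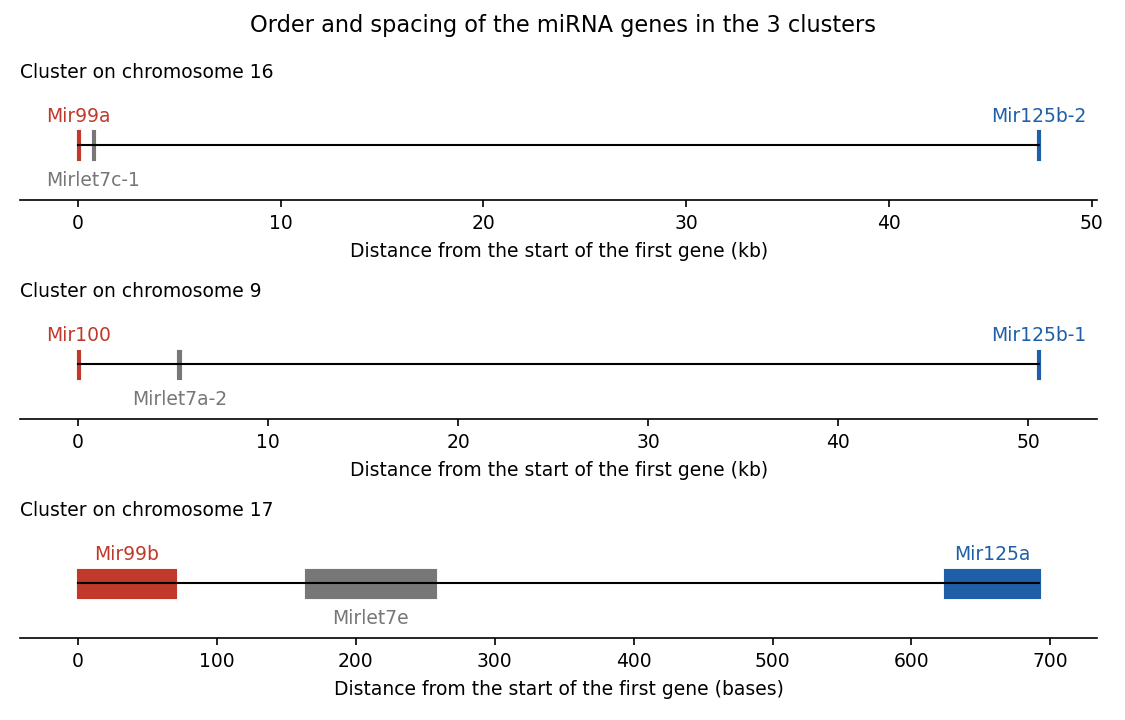
Map of the 3 clusters, with distance from the start of the first gene on the x axis (kb for chromosomes 16 and 9, bases for chromosome 17) and 1 box per miRNA gene, outlined wider than scale in the kb panels. The clusters of chromosomes 16 and 9 span 47.4 and 50.6 kb, and that of chromosome 17 spans 692 bases.

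Replicate 1 held 5183641 and replicate 2 held 5871233 counts on the strand of a miRNA gene, and levels are given as counts per 1000000 of these (CPM). Reads aligned to several places were 43.6% and 43.2% of all reads. A gene with 0 counts could still have stood at up to 0.579 and 0.511 CPM of reads assigned to it alone. Intervals given below cover counting error only and take reads as independent. No molecular identifiers are mentioned, so reads may include copies of the same molecule, and the intervals may be too narrow. As a check of the tissue, 6 of 8 listed neuronal genes reached 10 counts in each library, with 32485 and 34358 CPM in sum. The oligodendrocyte list held 5250 and 6676 CPM, with 2 of 3 genes at that minimum. The microglia and leukocyte list held 1237 and 992 CPM, of which Mir150 alone gave 1183 and 966 CPM. The red blood cell list held 41.9 and 56.9 CPM, and the liver gene Mir122 held 20.4 and 36.1 CPM. The muscle list held 76.8 and 142 CPM, nearly all of it from Mir206 with 76.6 and 142 CPM. Of the neuronal sum, Mir132 alone gave 14669 and 19562 CPM. The paired genes Mir128-1, Mir128-2, Mir138-1 and Mir138-2 are also on the neuronal list, with 6381, 1597, 6700 and 3135 CPM in replicate 1. Reads that fit several places are not counted. The counts of genes that make the same miRNA at several places may therefore fall short, and low counts of such genes inform little. The 3 miR-124 genes of neurons (Mir124a-1, Mir124a-2 and Mir124a-3) averaged 2.57, 0.085 and 0.959 CPM. The 0 counts of Mir1a-1, Mir133a-1 and Mir133a-2, which also have copies elsewhere, are therefore no measure of muscle in the tissue. The part of other cells in the results below was not tested.

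All 6 members reached 10 counts in each library, as did 20.2% of the 2202 genes. Their summed share of gene-assigned counts was 6.86% in the first library (exact 95% interval 6.84 to 6.89) and 4.10% in the second (4.08 to 4.11), or 5.48% ± 1.96 (SD, n = 2). The libraries thus differed 1.68-fold in this share. The miR-99/100 genes held 6.01% and 3.02% of counts, and the miR-125 genes 0.856% and 1.08%. Reads of exactly miR-125b-5p fit both Mir125b genes and stand outside these counts. No miR-99/100 strand was found whole in another gene of the RefSeq table. These shares therefore do not rank the families by abundance. The totals of assigned counts went in opposite directions from replicate 1 to replicate 2. A scaled level reads the counts a library gave to a gene, and fewer cells with a miRNA or less of it per cell cannot be told apart.

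**Figure D2:**
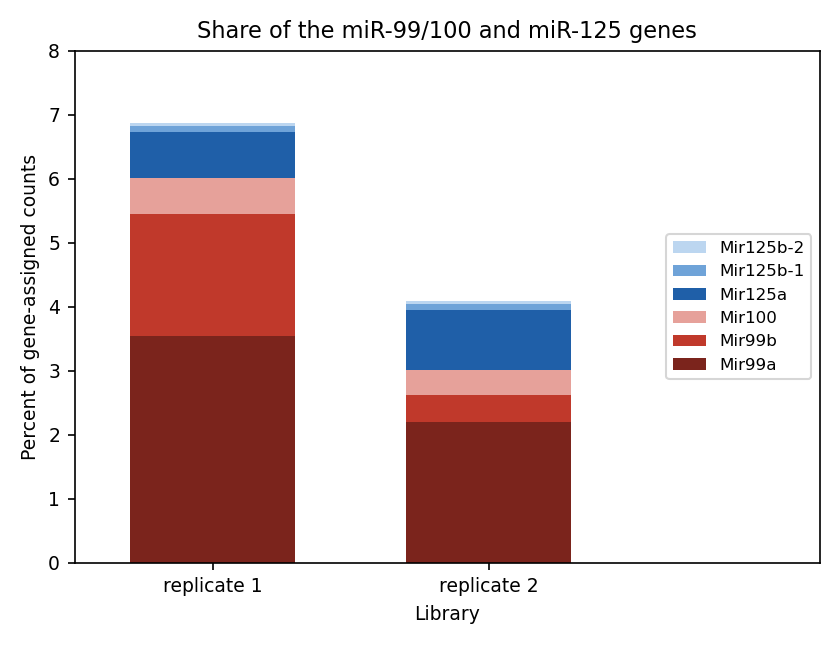
Stacked bars of the percent of gene-assigned counts (y axis, from 0) taken by each of the 6 genes in each library (x axis). The red miR-99/100 parts sum to 6.01% in replicate 1 and 3.02% in replicate 2, and the blue miR-125 parts, without reads that fit both Mir125b genes, to 0.856% and 1.08%.

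Mir99a, the miR-99/100 gene of the chromosome 16 cluster, was the highest of the 6 in both libraries. It had 183378 counts (35376 CPM) in replicate 1 and 128754 counts (21930 CPM) in replicate 2, a mean of 28653 ± 9508 CPM (SD, n = 2). Among all genes it ranked 6 in replicate 1 and 9 in replicate 2. Mir99b of chromosome 17 had 98740 counts (19048 CPM) in replicate 1 but 25355 counts (4319 CPM) in replicate 2. Its rank was 12 in the first library and 39 in the second, and its SD was 89.1% of its mean of 11683 CPM. Mir100 of chromosome 9, whose 5p strand is 1 base away from that of Mir99a, had 29285 counts (5650 CPM) and 23049 counts (3926 CPM). All 3 miR-99/100 genes were higher in replicate 1.

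Mir125a, of the chromosome 17 cluster, was the leading miR-125 gene. It had 37856 counts (7303 CPM) in replicate 1 and 55075 counts (9380 CPM) in replicate 2, with ranks of 26 and 24 among all genes. Mir125b-1 had 4539 counts (876 CPM) and 5483 counts (934 CPM), a mean of 905 ± 41.2 CPM (SD, n = 2). Its SD of 4.55% of the mean was the smallest among the 6 members under scaling to the gene-assigned total. Mir125b-2 had 1983 counts (383 CPM) and 2849 counts (485 CPM), and was the lowest of the 6 in both libraries. Mir125b-1 and Mir125b-2 give the same 5p strand, and reads that fit both stand outside these counts, so these levels are those of reads assigned to only 1 of the copies. The level of miR-125b itself is not given by them, and its order against miR-125a cannot be read from these tables.

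The let-7 genes of the same clusters, whose family holds back growth programmes in differentiated cells, ranged widely. Mirlet7e had 115221 counts (22228 CPM) in replicate 1 and 161468 counts (27502 CPM) in replicate 2. Mirlet7c-1 had 684 and 669 CPM, and Mirlet7a-2 had 93.4 and 93.2 CPM. The let-7a and let-7c 5p strands were each found whole in 2 genes of the RefSeq table and that of let-7e in 1. Thus in the clusters of chromosomes 16 and 9 both the let-7 and the miR-125 gene share their 5p strand with a gene elsewhere, and the miR-99/100 gene does not. On chromosome 17 none of the 3 strands was shared. Gm25927, annotated on the other strand across Mirlet7e, had 0 counts on its own strand in both libraries.

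**Figure D3:**
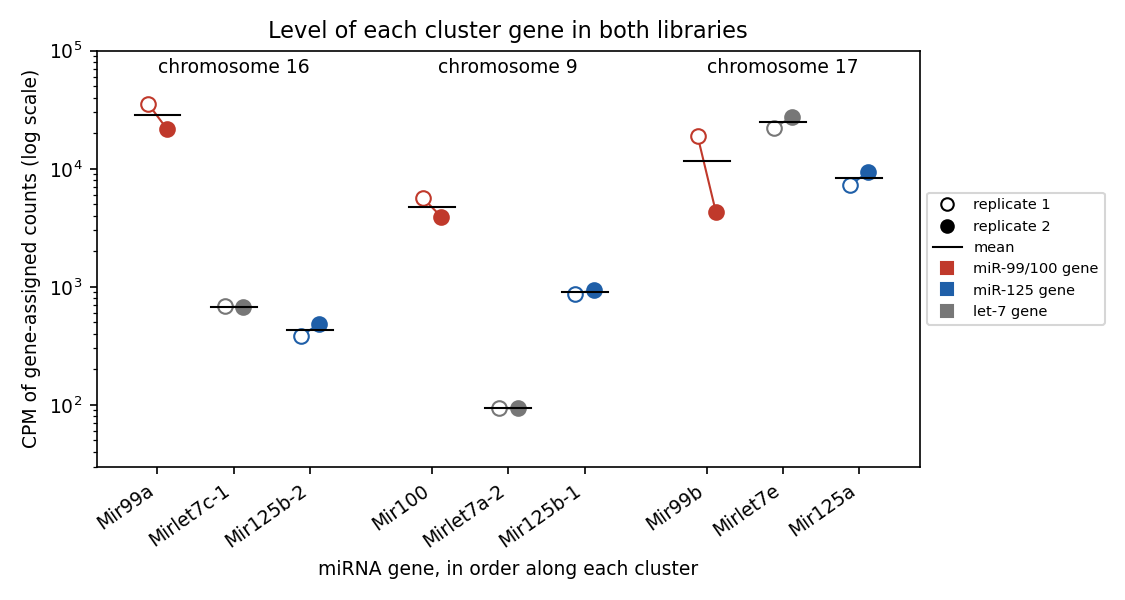
CPM of each cluster gene on a log scale (y axis), by gene in cluster order (x axis), with open points for replicate 1, filled points for replicate 2 and a black line at their mean. The red points of Mir99a, Mir100 and Mir99b are lower in replicate 2, and the blue points of the miR-125 genes are higher there under scaling to the gene-assigned total, though Mir125b-1 is lower there under TMM and DESeq2 scaling.

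For the Mir125b genes, assigned reads leave out those of exactly their shared strand. By mean level of assigned reads, the order of the 6 was Mir99a, Mir99b, Mir125a, Mir100, Mir125b-1 and Mir125b-2. Of its 5 pairs of neighbours, 4 kept their order in both libraries. The exception was the chromosome 17 pair Mir99b and Mir125a. Mir99b was 11745 CPM above Mir125a in replicate 1 and below it in replicate 2, where the gap was -5062 CPM, so these genes did not differ beyond their spread. Mir99a stood above Mir99b by 16970 ± 907 CPM (SD of the gap, n = 2). As a ratio the 2 genes were less steady, at 1.86 in replicate 1 and 5.08 in replicate 2. The gap from Mir125a to Mir100 was 1653 CPM in replicate 1 and 5455 CPM in replicate 2.

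How much did the libraries differ in each gene? The log2 ratio of replicate 2 to replicate 1, on log2(CPM + 1), was -2.14 for Mir99b, -0.69 for Mir99a and -0.53 for Mir100. It was 0.36 for Mir125a, 0.34 for Mir125b-2 and 0.09 for Mir125b-1. The median was -0.69 in the miR-99/100 genes, 0.34 in the miR-125 genes and -0.22 over all 6, against 0.16 over the 472 genes tested. Over the 291 genes whose counts averaged 100 or more, the median ratio was 0.17 and the median absolute ratio 0.34. From the lowest ratio upward, Mir99b ranked 3, Mir99a 13 and Mir100 26 of these 291. The 3 miR-125 genes ranked 127, 187 and 192, in the middle of the genes.

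A 2-sided exact binomial test of the counts, adjusted by Benjamini-Hochberg over all 472 genes, called all 6 members as different between the libraries. It called 59.7% of the genes tested. Adjusted instead over only the 291 genes whose counts averaged 100 or more, as they did for all 6 members, it called 83.2%. The count of members is thus near the background of well-covered genes and is no result about them. Higher in replicate 1 were 3 of 6 members, against 20.3% of genes tested and 28.2% of the well-covered ones, and higher in replicate 2 were 3 of 6, against 39.4% and 55.0%. The test compares the reads of 2 libraries and leaves out the spread between samples, so it shows no difference between conditions. Mir99b was 4.41-fold higher in replicate 1 (exact 95% interval 4.35 to 4.47), Mir99a 1.61-fold (1.60 to 1.62) and Mir100 1.44-fold (1.41 to 1.46). Mir125a was 1.28-fold higher in replicate 2 (1.27 to 1.30) and Mir125b-2 1.27-fold (1.20 to 1.34).

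Mir125b-1 was 1.07-fold higher in replicate 2 (1.03 to 1.11), with an adjusted p of 0.00267 in the exact binomial test, but this direction depended on the scaling. TMM scaling, which takes a trimmed mean over genes in place of the total, moved the median of the 291 genes by -0.17, and DESeq2 size factors moved it by -0.18. Mir125b-1 was then at -0.078 and -0.090, lower in replicate 2. Under TMM all 6 members were again called, against 58.9% of genes, with 2 of 6 higher in replicate 2 (29.9% of genes) and 4 of 6 higher in replicate 1 (29.0%). These shares are over all 472 genes tested. The share among well-covered genes, the nearer background for the members, was not computed under TMM. The 5 members other than Mir125b-1 kept their direction under both scalings, with Mir125a at 0.19 and 0.18 and Mir125b-2 at 0.17 and 0.16. Relative to the median of the 291 genes, Mir99b stood at -2.31, Mir99a at -0.86, Mir100 at -0.70, Mir125a at 0.19, Mir125b-2 at 0.17 and Mir125b-1 at -0.08. Of the 3 let-7 neighbours the test called 1, Mirlet7e, at a log2 ratio of 0.31. Mirlet7c-1 (-0.03) and Mirlet7a-2 (-0.00313) did not pass it, though under TMM and DESeq2 scaling Mirlet7c-1 was called as lower in replicate 2, at -0.20 and -0.21.

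**Figure D4:**
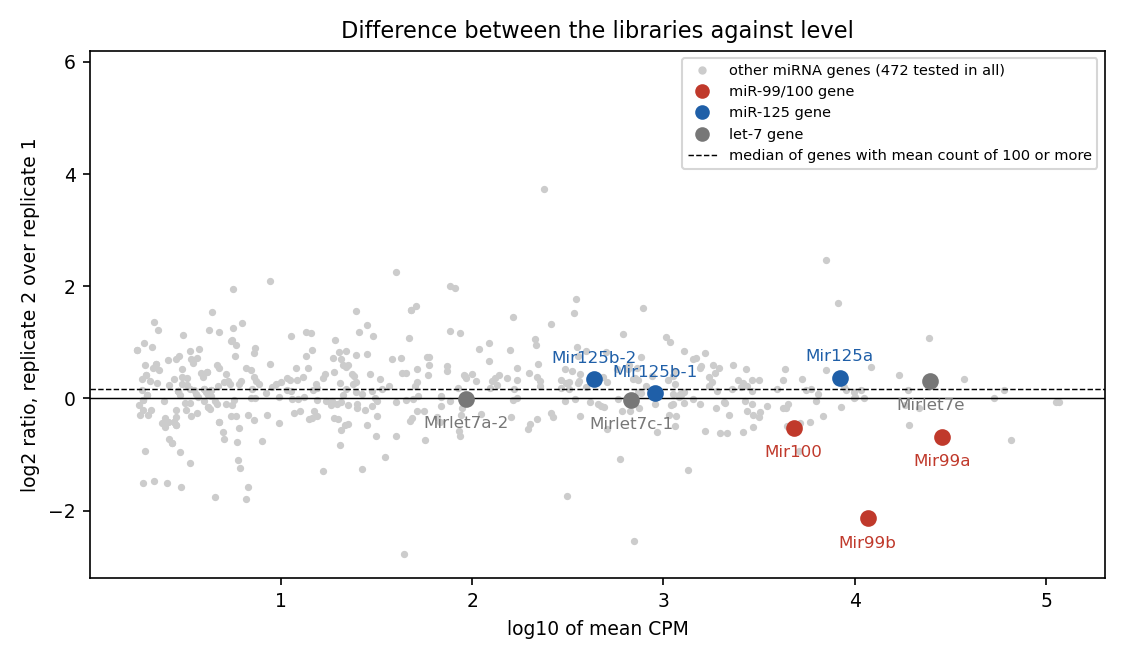
Each point is 1 of the 472 tested miRNA genes, with log10 of its mean CPM (x axis) and its log2 ratio of replicate 2 to replicate 1 (y axis); the dashed line is the median of 0.17 of the 291 genes whose counts averaged 100 or more. The red miR-99/100 genes lie at -0.53, -0.69 and -2.14, and the blue miR-125 genes lie close to the dashed line, at 0.09 (Mir125b-1, below 0 under TMM and DESeq2 scaling), 0.34 and 0.36.

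Ratios of counts within a cluster do not depend on the scaling between libraries. In each of the 3 clusters the miR-99/100 gene was lower relative to both of its neighbours in replicate 2 than in replicate 1. On chromosome 17, Mir99b had 2.61 counts per count of Mir125a in replicate 1 and 0.460 in replicate 2, a 5.67-fold change (conditional exact 95% interval 5.56 to 5.77). Against Mirlet7e it went from 0.857 to 0.157, a 5.46-fold change (5.37 to 5.54). On chromosome 16, Mir99a had 92.5 counts per count of Mir125b-2 in replicate 1 and 45.2 in replicate 2, which was 2.05-fold (1.93 to 2.17). On chromosome 9, Mir100 had 6.45 and 4.20 counts per count of Mir125b-1, which was 1.53-fold (1.47 to 1.60). Against its let-7 neighbour, Mir99a changed 1.58-fold (1.51 to 1.65) and Mir100 1.44-fold (1.27 to 1.63), both lower in replicate 2.

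Relative to the let-7 gene, the miR-125 gene of each cluster changed less between the libraries than the miR-99/100 gene did. Mir125a had 0.329 counts per count of Mirlet7e in replicate 1 and 0.341 in replicate 2, a ratio of 1.04 between the libraries (1.02 to 1.05). Mir125b-1 had 9.38 and 10.02 counts per count of Mirlet7a-2, a ratio of 1.07 whose interval of 0.938 to 1.22 includes 1. Mir125b-2 had 0.559 and 0.725 counts per count of Mirlet7c-1, a ratio of 1.30 (1.20 to 1.40). The 6 pairs with a miR-99/100 gene in the numerator reuse the same 3 genes and restate their log2 ratios relative to their neighbours, so they are no further evidence. The intervals cover counting error only, by which most well-covered genes differed between the libraries, and no p-value is given for these pairs.

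**Figure D5:**
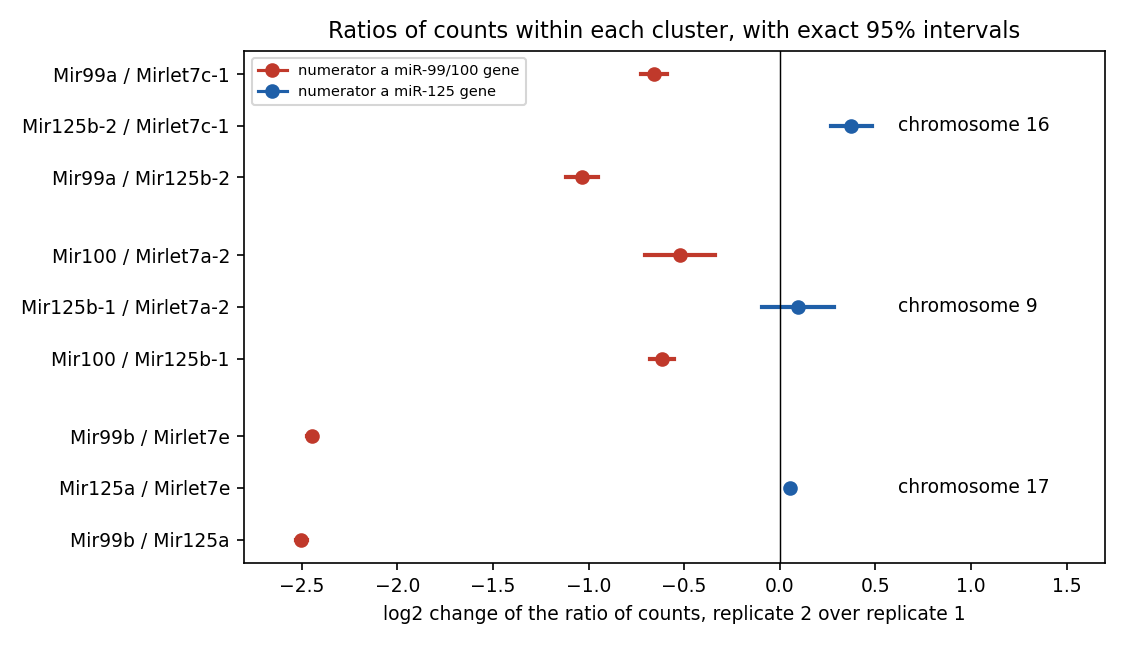
Log2 change, replicate 2 over replicate 1, of the ratio of counts of 2 genes of a cluster (x axis) for 9 pairs (y axis), with exact 95% intervals as bars, some narrower than the points. The 6 red pairs with a miR-99/100 gene over a neighbour lie below 0, and the bar of Mir125b-1 over Mirlet7a-2 crosses 0.

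The summed counts of a cluster differed less than its makeup on chromosome 17. The cluster took 4.86% of gene-assigned counts in replicate 1 and 4.12% in replicate 2. Within it Mir99b was 39.2% of the cluster's counts in the first library and 10.5% in the second, Mirlet7e was 45.8% and 66.8%, and Mir125a was 15.0% and 22.8%. The chromosome 16 cluster took 3.64% and 2.31%, of which Mir99a was 97.1% and 94.998%. The chromosome 9 cluster took 0.662% and 0.495%, of which Mir100 was 85.4% and 79.3%. In both of these clusters the let-7 and miR-125 genes lack reads of exactly their shared 5p strands. The shares of Mir99a and Mir100 may thus be too high as shares of what the clusters make. They cannot be set beside those of chromosome 17, where no 5p strand was found whole in another gene of the RefSeq table.

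Within families the members also differed from each other. Mir99a had 6.26 counts per count of Mir100 in replicate 1 and 5.59 in replicate 2, and it had 1.86 and 5.08 counts per count of Mir99b. Mir99b was 31.7% of miR-99/100 counts in the first library and 14.3% in the second. In the miR-125 family, Mir125a had 19.1 and 19.3 counts per count of Mir125b-2, a ratio of 1.01 between the libraries whose interval of 0.954 to 1.07 includes 1. Mir125b-1 had 2.29 and 1.92 counts per count of Mir125b-2. Counts of both Mir125b genes leave out reads of exactly their shared 5p strand, so these ratios do not set miR-125a against miR-125b.

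The genes outside the 6 that were nearest to each by level in both libraries were found by Euclidean distance over log2(CPM + 1). Mir125a was nearest to Mir30d at a distance of 0.0400, Mir125b-1 to Mir467d at 0.131, Mir100 to Mir342 at 0.165, Mir125b-2 to Mir412 at 0.208 and Mir99a to Mir770 at 0.632. The nearest gene to Mir99b was Mir92b at a distance of 1.42, with 8951 and 8082 CPM, the farthest of the 6. A likeness over 2 libraries describes levels only.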

How the data were processed

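Small RNA was counted in 2 libraries of 1 group. The deposited tables hold raw counts of reads for each miRNA gene, on mm10 with GENCODE M21, per the text files deposited beside them. Which aligner and counter the authors ran is not given in the sources used. Of 3 deposited count columns, the one on the gene's strand was used, and 4 rows that name no gene (62.7% and 63.3% of reads, mostly aligned to several places or unmapped) were left out of library sizes.

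CPM, exact (Clopper-Pearson and conditional) 95% intervals and the 2-sided exact binomial test, adjusted by Benjamini-Hochberg over genes whose counts averaged 10 or more and called below 0.05, used scipy 1.17.1. The test was tried on counts simulated with counting error only, which leave out any further spread between samples. With 1 group a quasi-likelihood test has no coefficient, so edgeR 4.0.16 and DESeq2 1.42.0 gave alternative scalings only. Log2 values carry a pseudocount of 1 CPM. Alternatives also covered the total, the strand column, the count minimum, the pseudocount and each library alone.

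The 6 members and all lists were chosen with earlier results of these data known. Named are the members, the let-7 genes of their clusters, miRNA genes overlapping these on the other strand, genes sharing a 5p seed with a member, Mir10a, Mir10b and the gene nearest to each member.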

Additional observations from a re-analysis of the deposited data

How the results depend on the processing

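With reads aligned to several places added to the total, the summed share of the 6 genes was 2.52% in place of 5.48%. Any reads of the 6 genes among them could not be added to their counts, so 2.52% may be too low. Mir125b-1 had a log2 ratio of 0.09, and changed direction to -0.078 with TMM scaling and -0.090 with DESeq2 size factors. The other 5 members kept their direction and call with both scalings, and all 6 did with the minimum raised to 100 counts, no count minimum, either pseudocount and the column that ignores strand. In that column Mirlet7e, across which Gm25927 is annotated on the other strand, had 0 counts, against 115221 and 161468 on its own strand. Its ratios therefore have no value there. No paired analysis was possible because there is only 1 group. With 2 libraries, no test against the spread between samples could be made.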

Other observations

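Other genes related by sequence to the 6 differed widely in level. Mir351, on whose 5p strand the miR-125 seed is found, had 4149 counts (800 CPM) in replicate 1 and 2232 counts (380 CPM) in replicate 2.
miR-351-5p: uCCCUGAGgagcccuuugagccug
The capitals mark bases 2 to 8. Its log2 ratio was -1.07, with an adjusted p of 1.92e-185 in the exact binomial test between the libraries, so it was lower in replicate 2, whereas Mir125a and Mir125b-2 were higher there. The difference between Mir351 and these genes was not tested. Mir6367 and Mir6394, which share the same seed, had 0 counts in both libraries, which allows up to 0.579 and 0.511 CPM. No gene outside the members shares the miR-99/100 seed in the RefSeq table. Their relatives Mir10a and Mir10b, which lie in Hox clusters and are known for the hindbrain and spinal cord, had 11.6 and 11.4 CPM and 26.2 and 18.9 CPM in replicates 1 and 2.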
